A study of Mus musculus with 9 samples.

Results

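The RNA of 10 genes of the p53 pathway was followed in mouse macrophages that made GFP alone or one of 2 forms of GFP-tagged tristetraprolin (TTP). Chosen by symbol, these genes were Trp53, Mdm2, Cdkn2a, Cdkn1a, Ccng1, Sesn2, Phlda3, Trp53inp1, Zmat3 and Gdf15. All 10 were among the 25494 genes with values per library, and all 10 were listed in each of the 3 comparisons, which held 11977 genes for TTP vs GFP and 13205 for each comparison with TTP-AA. The cells were bone marrow-derived macrophages from TTP-deficient mice (Zfp36 disrupted), immortalized with human c-MYC and an activated HRAS, sorted on macrophage surface markers and transduced with a tet-inducible vector. The GFP group (labelled GFP/EV) made GFP alone and so had no TTP. The TTP group made the wild-type protein fused to GFP, and the TTP-AA group made a GFP fusion with both MK2 phosphorylation serines changed to alanine. Every group received doxycycline at 1 µg/ml for 6 h and LPS at 1 µg/ml for 1 h, and each had 3 libraries of rRNA-depleted total RNA, 9 in all. Each construct was carried by a transduced cell population of its own, so that effects of the construct and of the population cannot be told apart. The labels did not state whether the 3 libraries came from separate cultures, and p-values then measure only the spread between these libraries. Bone marrow was taken from mice of 6 weeks, per the study's methods, and no group without LPS was part of this comparison.

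p53 (Trp53) is a transcription factor that is stabilized by DNA damage, oncogenes and other stresses and that induces genes of cell cycle arrest, DNA repair, metabolism and cell death. One of its targets is Mdm2, the ubiquitin ligase that marks p53 for degradation, and this closes a negative feedback loop. The Cdkn2a locus encodes p19Arf, which inhibits Mdm2, and p16Ink4a, an inhibitor of CDK4 and CDK6. In cells driven by MYC and RAS, the Arf to p53 route is a known barrier to transformation, and it is often lost in immortalized lines. TTP binds AU-rich elements in 3'UTRs, recruits deadenylases and thereby destabilizes mRNAs, and phosphorylation by MK2 reduces this activity.

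The 3'UTRs of the 10 genes were searched for the AU-rich pentamer ATTTA and for the longer TATTTAT, in which the pentamer lies, on the strand of the mRNA and in the transcript with the longest coding sequence (GENCODE M21, GRCm38). The pentamer was present in 8 of the 10 genes and the longer element in 4, whereas 66.1% and 27.4% of the 11414 listed genes with a 3'UTR held them. Gdf15 had the most dense 3'UTR, with 5 pentamers and 3 longer elements in only 150 bases. Mdm2 held 8 pentamers and 1 longer element in 1335 bases, Ccng1 held 8 and 1 in 2316 bases, and Trp53inp1 held 8 and 2 in 4420 bases. Sesn2 had a single pentamer in 1684 bases, Trp53 had 1 in 441, Cdkn1a had 4 in 1334 and Zmat3 had 8 in 6692, all without the longer element. Phlda3 (727 bases) and Cdkn2a (255 bases) held neither. Windows of 30 bases around elements are shown for the genes whose RNA differed between groups and for Gdf15, with T for U and with each pentamer in capitals.
Mdm2, chr10:117688924-117688953, minus strand: ATTTAgaaatggcattgatgttATTTAttt
Trp53inp1, chr4:11172053-11172082, plus strand: tttaaaaaccttcccaccacATTTATTTAt
Sesn2, chr4:132492476-132492505, minus strand: tcccctctcccggATTTAaatggatgactt
Cdkn1a, chr17:29099487-29099516, plus strand: tatttgtgttttaATTTAaacgtctcctgt
Gdf15, chr8:70629482-70629511, minus strand: cttcaaggatgctATTTAtatttgtATTTA
A match to these letters is a description of the sequence and not a measured binding site. Binding was measured in the paper, by crosslinking and immunoprecipitation of the TTP forms. It lists Mdm2, Cdkn1a and Gdf15 among the top 3'UTR targets after LPS, and reports Gdf15 mRNA in RNA immunoprecipitates of both forms.

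For the other end of the genes, RefSeq promoter windows (250 bases before to 50 after a start site, GRCm38) were searched for the ungapped consensus of the p53 response element, which reads the same on both strands and is 20 bases long. Windows were available for 8 of the 10 genes, 11 in all, and not for Trp53inp1 and Zmat3. With at most 1 mismatch, the consensus was present in the windows of 2 genes, Cdkn1a and Ccng1, and in 29 of 32851 windows (0.0883%) of all genes. The sites are shown with the central 4 bases of each of their half-sites in capitals.
Cdkn1a, upstream start site, chr17:29090928-29090947, plus strand: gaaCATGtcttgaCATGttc
Ccng1, chr11:40755462-40755481, minus strand: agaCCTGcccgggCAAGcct
The site of Cdkn1a began 51 bases upstream of the start site of its window and that of Ccng1 195 bases upstream. The nearest match in Trp53 had 3 mismatches, and the remaining members with windows had 5 or more. Elements outside these windows, or with a spacer between the half-sites, were not searched for. The lack of a close match here is thus no evidence that a gene lacks a p53 element.

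The library values deposited for these samples are fitted means of the authors' model and hold no scatter of their own. They are given below as scaled fitted counts, that is, divided by a library factor. Within a gene, same-numbered libraries therefore stand in an identical ratio between groups for every replicate number, and agreement of the 3 numbers is no evidence of repeatability. The error of each difference is the standard error (SE) of the deposited log2 fold change, from the DESeq2 model over 3 libraries per group, and adjusted p-values are those of its two-sided Wald test with Benjamini-Hochberg adjustment over all listed genes. A gene was called where the adjusted p was under 0.05. Sums of the fitted means, which stand in for depth, ranged from 21482954 (TTP replicate 1) to 102613526 (TTP-AA replicate 3), and the members' mean counts from 1029 for Trp53 to 52383 for Mdm2. Zfp36, the disrupted and re-supplied gene, gave a log2 fold change of 0.04 ± 0.17 (SE) between TTP and GFP (DESeq2 adjusted p = 0.93) and of 0.69 ± 0.17 between TTP-AA and GFP (adjusted p = 0.000682), so that its RNA did not tell the labels GFP and TTP apart. TTP-AA also exceeded TTP at this gene, with a log2 fold change of 0.65 ± 0.17 (adjusted p = 0.000902), and the part of this in the differences between TTP-AA and TTP below was not tested. As to cell type, all 8 macrophage markers had values, with sums of 477273 to 916417 per library, whereas the markers of other cell types with values, 8 of 11, summed to 333 to 527. Lyz2 (mean count 584000) made up most of the first sum, while Fcgr1 (502) and Mertk (18.8) were low. S100a8 (216) and Flt3 (234) made up most of the second.

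TTP-AA macrophages had more Sesn2, Trp53inp1 and Phlda3 RNA and less Cdkn1a RNA than GFP macrophages. Between the TTP forms, Sesn2, Trp53inp1 and Mdm2 were higher with TTP-AA, by 1.75-fold, 1.55-fold and 1.29-fold. Wild-type TTP against GFP gave no call among the 10 genes. Over all listed genes, 9.16% were called in TTP vs GFP, 17.9% in TTP-AA vs GFP and 28.6% in TTP-AA vs TTP. None of the members' calls in these comparisons held once scores were divided by their spread over all genes. True differences between groups also widen that spread, so the division can remove them as well. Trp53 itself, Cdkn2a, Ccng1, Zmat3 and Gdf15 were called in no comparison.

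**Figure D1:**
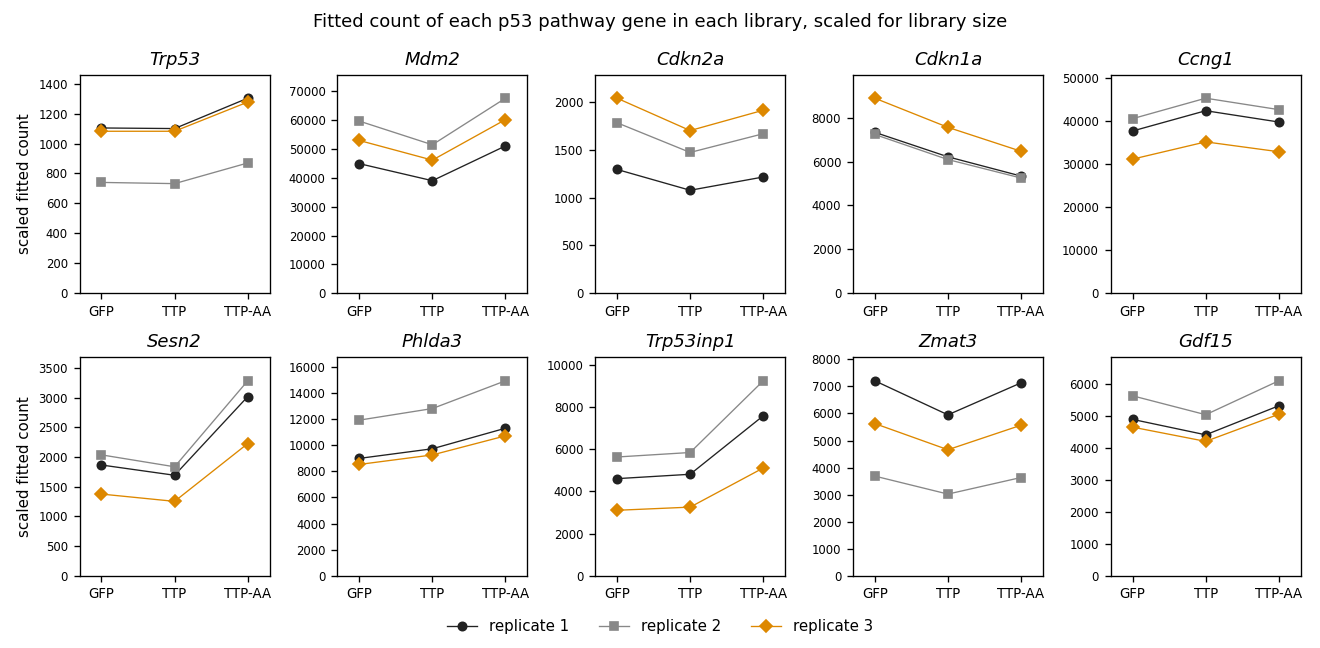
Scaled fitted count (vertical axis, from 0, a scale per gene) of the 10 genes in each of the 9 libraries, by group, with lines joining libraries of the same replicate number. Lines of a gene run in parallel on a log scale because the values are fitted. Sesn2 was 2228 to 3287 with TTP-AA and 1254 to 2038 in the other libraries.

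Trp53, the transcription factor at the centre of the pathway, lies on chromosome 11 (69580359 to 69591873, plus strand). Its scaled fitted counts were 1104, 740 and 1082 in GFP replicates 1 to 3, 1100, 732 and 1082 in TTP and 1303, 870 and 1277 in TTP-AA. The groups overlapped, and replicate 2 was the lowest of each group. TTP-AA differed from GFP by 0.23 ± 0.14 on the log2 scale (DESeq2 adjusted p = 0.299) and from TTP by 0.22 ± 0.14 (adjusted p = 0.272), neither of which passed the test. For TTP vs GFP, the change was 0.01 with a 95% interval of -0.27 to 0.29.

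Mdm2, the ligase that limits p53, lies on chromosome 10 (117688875 to 117710758, minus strand). Its scaled fitted counts were 44955, 59733 and 53005 in GFP, 39032, 51506 and 46173 in TTP and 51105, 67675 and 60246 in TTP-AA. TTP was the lowest and TTP-AA the highest group within each replicate number, as the fit fixes for all numbers, although the 3 groups overlapped across numbers. TTP-AA exceeded TTP by 0.36 ± 0.12 on the log2 scale and was called (adjusted p = 0.0111), whereas its changes against GFP were not, at 0.17 ± 0.12 with TTP-AA (DESeq2 adjusted p = 0.34) and -0.19 ± 0.12 with TTP (adjusted p = 0.368). The median gene of chromosome 10 moved in the same directions, with a log2 median of 0.15 between TTP-AA and TTP (626 genes) and of -0.13 between TTP and GFP (562 genes). After subtracting the chromosome median, the difference of Mdm2 between the TTP forms was 0.21 and its call was lost (adjusted p = 0.179).

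Cdkn2a, whose transcripts encode p16Ink4a and p19Arf, lies on chromosome 4 (89274471 to 89294653, minus strand). Counts per gene do not separate the products. The locus had RNA in every library, with scaled fitted counts of 1295, 1784 and 2041 in GFP, 1077, 1473 and 1702 in TTP and 1216, 1669 and 1915 in TTP-AA. The groups overlapped and replicate 1 was the lowest in each. The largest difference was that of TTP vs GFP, -0.25 ± 0.12 (log2, DESeq2 adjusted p = 0.193).

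Cdkn1a encodes p21, the inhibitor of cyclin-dependent kinases through which p53 arrests cells in G1, and lies on chromosome 17 (29090976 to 29100727, plus strand). It was the only member called lower with TTP-AA. Its scaled fitted counts were 7330, 7232 and 8886 in GFP, 6214, 6089 and 7558 in TTP and 5336, 5247 and 6467 in TTP-AA. All fitted values of TTP-AA were below all of GFP, which follows from the fit and is not a separate observation. The mean of TTP lay between theirs, and its libraries overlapped both groups. The log2 change was -0.47 ± 0.11 for TTP-AA vs GFP (0.723-fold, DESeq2 adjusted p = 0.000686). TTP-AA vs TTP (-0.25 ± 0.11, adjusted p = 0.091) and TTP vs GFP (-0.22 ± 0.11, adjusted p = 0.236) did not pass. An exon of Cdkn1a overlaps a gene on the opposite strand, AC167363.2, and whether the counting used strand was not given in the sources used here.

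Ccng1, cyclin G1, is a p53 target that recruits a phosphatase to Mdm2, and lies on chromosome 11 (40748552 to 40755311, minus strand). Its scaled fitted counts were 37687, 40553 and 31147 in GFP, 42403, 45314 and 35160 in TTP and 39776, 42656 and 32867 in TTP-AA. The groups overlapped widely. It had the lowest adjusted p of the members for TTP vs GFP, at a log2 change of 0.19 ± 0.08 (DESeq2 adjusted p = 0.151), and was not called.

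Sesn2, sestrin 2, restrains mTORC1 under amino acid and oxidative stress and is a target of both p53 and ATF4. It lies on chromosome 4 (132492032 to 132510501, minus strand). Scaled fitted counts were 1867, 2038 and 1377 in GFP, 1694, 1837 and 1254 in TTP and 3020, 3287 and 2228 in TTP-AA. The lowest fitted value of TTP-AA was above the highest of either other group, which follows from the fit and is not a separate observation. Sesn2 rose with TTP-AA by 0.68 ± 0.11 against GFP (1.61-fold, DESeq2 adjusted p = 4.82e-08) and by 0.81 ± 0.11 against TTP (1.75-fold, adjusted p = 1.62e-11), while TTP vs GFP gave -0.12 ± 0.11 (adjusted p = 0.575). These were the lowest adjusted p-values among the members, and by this measure Sesn2 ranked 169 of 13205 genes against GFP and 249 of 13205 against TTP.

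Phlda3, a p53 target that competes with Akt for membrane lipids, lies on chromosome 1 (135766119 to 135769136, plus strand). It had 8998, 11931 and 8534 scaled fitted counts in GFP, 9736, 12820 and 9264 in TTP and 11313, 14949 and 10727 in TTP-AA. The groups overlapped because of replicate 2, the highest of each. TTP-AA exceeded GFP by 0.32 ± 0.08 (1.25-fold, DESeq2 adjusted p = 0.000934). The difference of 0.19 ± 0.08 between the TTP forms was just outside the threshold (adjusted p = 0.0558), and that of TTP vs GFP was 0.13 ± 0.08 (adjusted p = 0.352).

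Trp53inp1, a nuclear protein that promotes p53 phosphorylation and autophagy, lies on chromosome 4 (11156431 to 11174379, plus strand). Its scaled fitted counts were 4602, 5628 and 3102 in GFP, 4809, 5841 and 3252 in TTP and 7581, 9240 and 5108 in TTP-AA. Replicate 3 of TTP-AA fell among the GFP and TTP libraries, and the other 2 TTP-AA libraries were above all of them. It rose by 0.71 ± 0.16 against GFP (1.64-fold, DESeq2 adjusted p = 0.00021) and by 0.63 ± 0.16 against TTP (1.55-fold, adjusted p = 0.000716). TTP and GFP differed by 0.08 ± 0.16 (adjusted p = 0.842).

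Zmat3, a zinc finger protein that binds AU-rich RNA and affects splicing, lies on chromosome 3 (32334792 to 32366014, minus strand). It had 7208, 3684 and 5626 scaled fitted counts in GFP, 5949, 3019 and 4659 in TTP and 7132, 3632 and 5565 in TTP-AA. Replicate 2 was about as low in every group, and the groups overlapped throughout. For TTP vs GFP the change was -0.26 ± 0.14 (DESeq2 adjusted p = 0.251), beside a chromosome 3 median of -0.20 over 575 genes. Zmat3 was not called in any comparison.

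Gdf15, a secreted stress cytokine of the TGF-beta family, lies on chromosome 8 (70629393 to 70632456, minus strand). Its scaled fitted counts were 4905, 5645 and 4662 in GFP, 4421, 5052 and 4215 in TTP and 5332, 6116 and 5067 in TTP-AA. The gene with the densest AU-rich 3'UTR of the 10 was not called between TTP-AA and GFP, the log2 change being 0.11 with a 95% interval of -0.21 to 0.43 (DESeq2 adjusted p = 0.717). TTP vs GFP gave -0.13 ± 0.16 (adjusted p = 0.701) and TTP-AA vs TTP 0.24 ± 0.16 (adjusted p = 0.269).

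**Figure D2:**
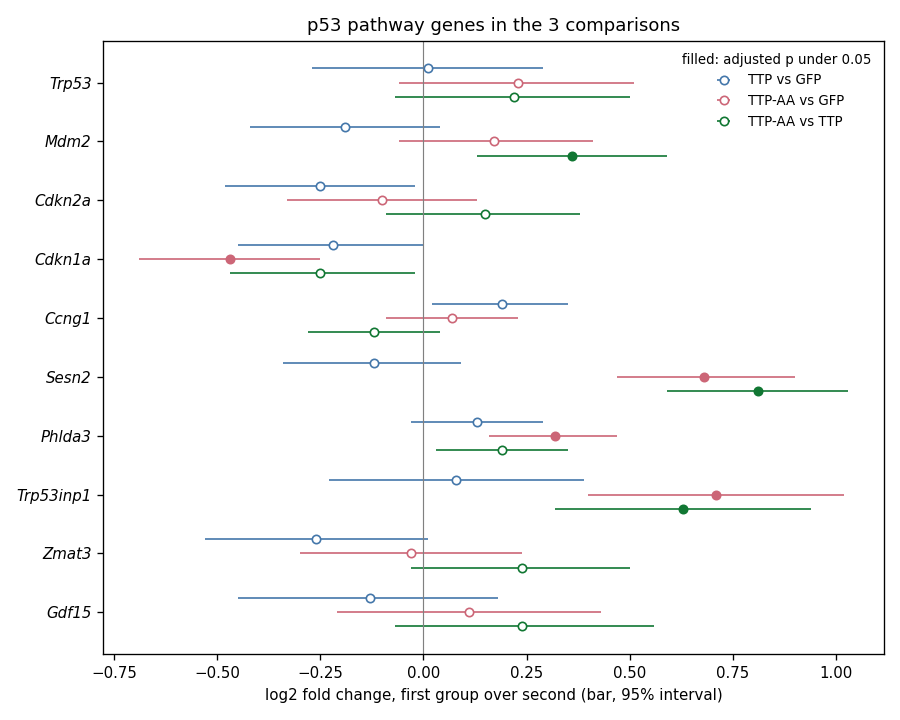
Deposited log2 fold change of each gene (horizontal axis, first group over second) in the 3 comparisons, with 95% intervals from the SE and filled points for adjusted p under 0.05. Filled points are Cdkn1a at -0.47 and Phlda3, Sesn2 and Trp53inp1 at 0.32 to 0.71 for TTP-AA vs GFP, and Mdm2, Trp53inp1 and Sesn2 at 0.36 to 0.81 for TTP-AA vs TTP.

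In counts, TTP vs GFP called 0 of the 10 genes (DESeq2), beside 9.16% of all listed genes, and 2 members had an unadjusted p under 0.05 (Ccng1 and Cdkn2a), as did 21.3% of all listed genes. No other tool could be run on these values. TTP-AA vs GFP called 4 of 10 against a background of 17.9%, with 3 higher (background 9.11%) and 1 lower (8.77%). TTP-AA vs TTP called 3 of 10, all higher, beside 28.6% in either direction and 14.0% higher, so that the share of members called there was near the background. The median log2 fold change of the 10 genes was -0.13, 0.14 and 0.23 in the 3 comparisons in that order, beside 0.01, 0.00 and -0.01 over all listed genes. A test of any difference among the 3 groups, built from the 3 deposited comparisons, called 5 of 10 members (Mdm2, Cdkn1a, Sesn2, Phlda3 and Trp53inp1) and 33.1% of 11977 genes. The comparisons share libraries, so their values are not independent. The spread of Wald scores over all genes was wider than that of a standard normal distribution, by factors of 1.53, 1.84 and 2.26. With scores divided by these factors no member was called in any comparison, beside 1.95%, 1.08% and 1.71% of all listed genes in the same order, and Sesn2 came nearest (adjusted p = 0.0614 for TTP-AA against GFP and 0.0674 against TTP).

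The order of the groups differed between genes. TTP-AA was the highest group for Trp53, Mdm2, Sesn2, Phlda3, Trp53inp1 and Gdf15 and the lowest for Cdkn1a, while Ccng1 was highest in TTP and Cdkn2a and Zmat3 in GFP. Neighbouring groups in these orders differed by a called amount only for Sesn2 and Trp53inp1, at the step to TTP-AA. For Mdm2 the called difference was between the ends of the order, TTP and TTP-AA, with GFP between them, and for Cdkn1a and Phlda3 between GFP and TTP-AA with TTP between them.

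Per kilobase of exon, the levels of the 10 genes spanned a wide range. Ccng1 and Mdm2 were the most abundant, at 10996 and 10349 scaled fitted counts per kilobase, followed by Phlda3 at 7004. Gdf15 (2725), Cdkn1a (1888), Cdkn2a (1344) and Trp53inp1 (844) lay below them. Sesn2 (595) and Zmat3 (452) were lower, and Trp53 was the lowest at 255. The genes with the highest levels, Ccng1 and Mdm2, were thus not those with the largest differences between groups.

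The replicate number, which follows the library date of the authors' model, went with differences often wider than those between groups, among the members and over all genes alike. The range of mean log2 scaled fitted counts over the 3 numbers was wider than that over the 3 groups for 7 of the 10 genes, and for 7942 of 13205 listed genes (60.1%). Zmat3 had the widest, 0.97, and was lowest in replicate 2, followed by Trp53inp1 (0.85), Cdkn2a (0.66) and Trp53 (0.58). Sesn2 and Cdkn1a were the called genes for which the group range (0.83 and 0.46) exceeded that over the numbers (0.56 and 0.30). Each number held 1 library of each group, and the term was part of the model behind the tests.

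**Figure D3:**
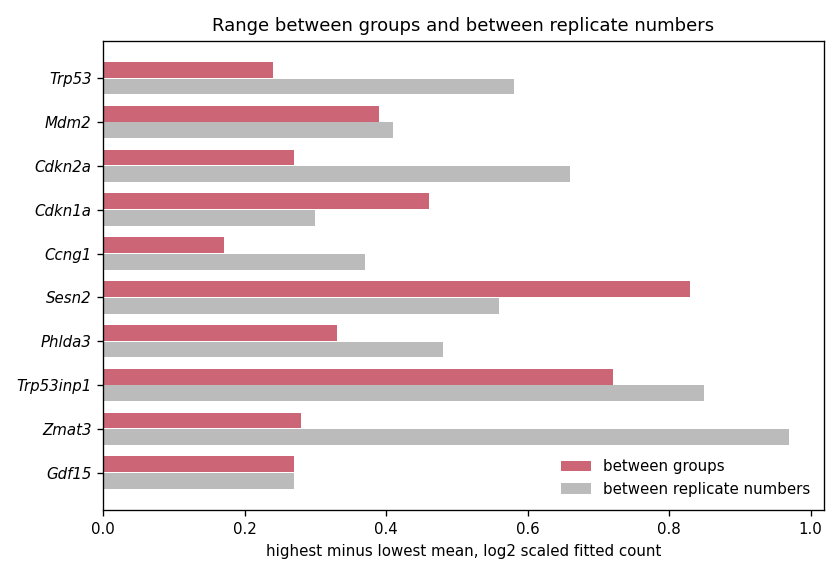
Highest minus lowest mean log2 scaled fitted count of each gene, over the 3 groups (red) and over the 3 replicate numbers (grey). The grey bar is the longer for 7 of 10 genes, from 0.97 for Zmat3, and the red bar reaches 0.83 for Sesn2.

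Other p53 targets moved in both directions with TTP-AA. Of 10 listed targets of the apoptosis arm, 3 were higher and 1 lower in TTP-AA vs GFP. These were Dram1, a lysosomal protein of autophagy (0.99 ± 0.16), Bbc3, the BH3-only protein PUMA (0.97 ± 0.11), the nuclease Aen (0.41 ± 0.09) and Pmaip1, the BH3-only protein NOXA (-0.68 ± 0.15). For TTP-AA vs TTP, 4 were higher, led by Dram1 (1.07 ± 0.16), Bbc3 (0.87 ± 0.11) and the apoptosome subunit Apaf1 (0.40 ± 0.12), and Pmaip1 was again lower (-0.56 ± 0.15). None of the 10 was called for TTP vs GFP. The shares called, 0, 40.0 and 50.0% in the order TTP vs GFP, TTP-AA vs GFP and TTP-AA vs TTP, stood beside 9.16, 17.9 and 28.6% of all listed genes.

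Among targets of arrest and signalling, Sesn1, the paralogue of Sesn2, was lower where Sesn2 was higher in TTP-AA vs GFP. Its log2 change against GFP was -0.73 ± 0.12 with TTP-AA (DESeq2 adjusted p = 2.54e-07) and -0.50 ± 0.12 with TTP (adjusted p = 0.00142). Eda2r, a receptor of the TNF receptor family, was higher in both (0.44 ± 0.15 and 0.72 ± 0.15). They were the called genes of this list in those comparisons, of 10 and 9 listed. For TTP-AA vs TTP the only call was Rprm (0.69 ± 0.21), an inducer of G2 arrest with a mean count of only 10.2. In the same order, 22.2, 20 and 10% of this list were called, beside 9.16, 17.9 and 28.6% of all genes.

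Of 10 targets of repair and metabolism, 4 were lower, 1 was higher and 5 were not called in each comparison with TTP-AA, and none was called for TTP vs GFP. The 50.0% called stood beside backgrounds of 17.9% against GFP and 28.6% against TTP. In TTP-AA vs GFP these included Rrm2b, a subunit of ribonucleotide reductase (-0.77 ± 0.12), Tigar, a regulator of glycolysis (-0.67 ± 0.12), and Fdxr, ferredoxin reductase (-0.35 ± 0.13). The glutathione peroxidase Gpx1 was higher (0.29 ± 0.09). For TTP-AA vs TTP the changes were -0.50 ± 0.12 for Rrm2b, -0.54 ± 0.12 for Tigar, -0.69 ± 0.13 for Fdxr and -0.38 ± 0.10 for the adenylate kinase Ak1. The median of this list was -0.19 against GFP and -0.25 against TTP, where the 10 genes described first had 0.14 and 0.23.

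Of 18 listed regulators of p53, 5 were higher and none lower for TTP-AA vs GFP, with values of 0.33 ± 0.12 for the ubiquitin ligase Cop1, 0.33 ± 0.12 for the kinase Hipk2, 0.31 ± 0.12 for the acetyltransferase Kat5 and 0.26 ± 0.09 for the deubiquitinase Usp7. For TTP-AA vs TTP, 5 were higher and 2 lower, led by the coactivator Crebbp (0.53 ± 0.14), Hipk2 (0.45 ± 0.12), Npm1, the nucleolar protein that binds Arf (-0.39 ± 0.11), and Cop1 (0.36 ± 0.12). For TTP vs GFP the only call was the checkpoint kinase Chek1 (0.38 ± 0.10). In the order of comparisons above, 5.56, 27.8 and 38.9% of the regulators were called, beside the same backgrounds of 9.16, 17.9 and 28.6%.

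Other inhibitors of cyclin-dependent kinases moved in both directions. Cdkn1c (p57) was higher with TTP-AA than with GFP by 0.94 ± 0.23 and than with TTP by 1.67 ± 0.23, and lower in TTP vs GFP (-0.73 ± 0.23), at a mean count of only 38.5. Cdkn2c (p18) was higher in TTP-AA vs TTP (0.47 ± 0.10) and lower in TTP vs GFP (-0.36 ± 0.10). Cdkn2d (p19Ink4d) was lower with TTP-AA than with GFP by a log2 change of -0.60 ± 0.15 and than with TTP (-0.38 ± 0.15). In all, 2, 2 and 3 of 5 were called in the 3 comparisons (40.0, 40.0 and 60.0%), beside 9.16, 17.9 and 28.6% of all genes. Of 15 genes of G1 and the G1/S transition, TTP vs GFP called the kinase Cdk2 (-0.51 ± 0.08) and the cyclin Ccne2 (0.26 ± 0.08), and TTP-AA vs GFP called Cdk2 (-0.27 ± 0.08) and the transcription factor E2f1 (-0.29 ± 0.09). For TTP-AA vs TTP, 5 were called, led by the cyclin Ccnd2 (-0.59 ± 0.17), its partner kinase Cdk4 (0.39 ± 0.09), Ccne2 (-0.32 ± 0.08) and the replication clamp Pcna (-0.27 ± 0.08). These are 13.3, 13.3 and 33.3% of the list, beside 9.16, 17.9 and 28.6% of all genes.

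Since Sesn2 is also a target of ATF4, genes of the integrated stress response were read beside it. Of 8 listed genes, 1 was called for TTP-AA vs GFP, the mTORC1 inhibitor Ddit4 (0.65 ± 0.16), and 2 for TTP-AA vs TTP, Ddit4 (0.53 ± 0.16) and the glutathione-degrading enzyme Chac1 (0.75 ± 0.23). For TTP vs GFP, Chac1 (-0.66 ± 0.23) and Ppp1r15a, which dephosphorylates eIF2alpha (-0.57 ± 0.17), were lower. The remaining genes of the list, Atf4 itself among them, were not called in any comparison. These are RNA levels, and the part of ATF4 in the change of Sesn2 was not tested. Of this list 25.0% was called between TTP and GFP (background 9.16%), 12.5% between TTP-AA and GFP (17.9%) and 25.0% between the TTP forms (28.6%).

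**Figure D4:**
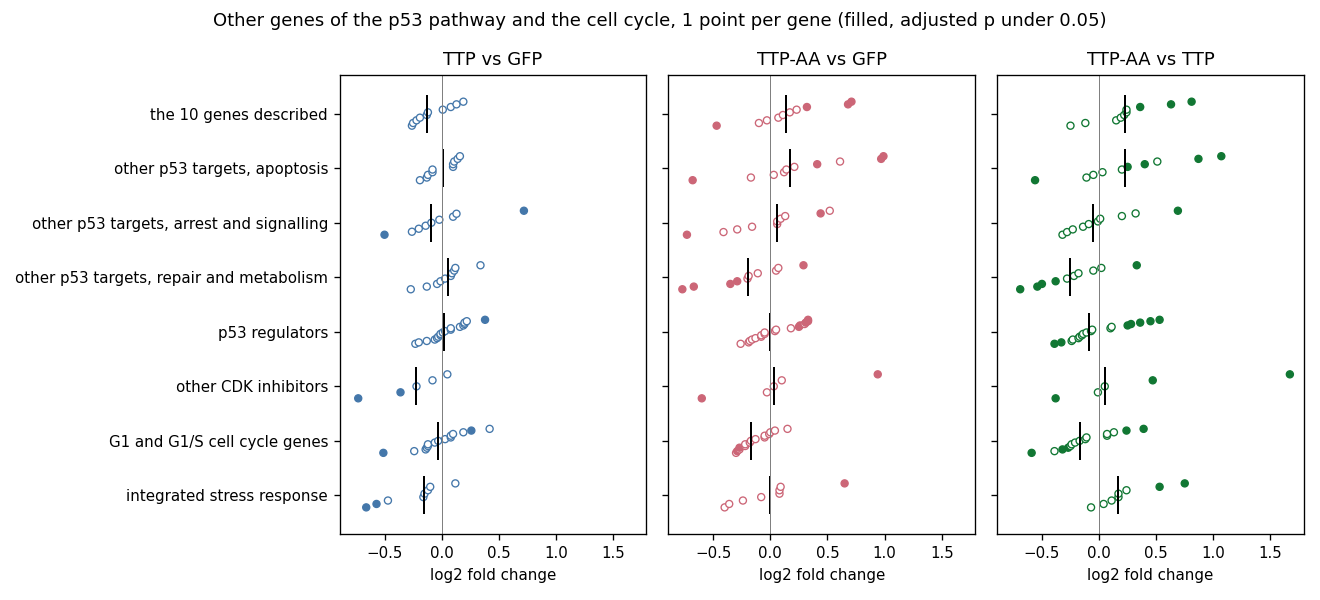
Deposited log2 fold change (horizontal axis) of the 10 genes described and of 7 further lists, in 3 panels for the 3 comparisons, with 1 point per gene, filled where the adjusted p was under 0.05, and a black bar at the median. In TTP-AA vs GFP, repair and metabolism targets have a median of -0.19 and apoptosis targets 0.17.

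Some other genes also differed between the groups. The macrophage marker Adgre1 was higher with TTP-AA than with GFP (0.68 ± 0.14) and than with TTP (1.43 ± 0.14). In TTP vs GFP, where no member was called, Adgre1 (-0.75 ± 0.14) and Fcgr1 (-1.2 ± 0.18) were lower, 2 of 7 listed markers (28.6%, background 9.16%). For TTP-AA vs GFP, 1 of 8 was called (12.5%, background 17.9%), and for TTP-AA vs TTP 3 of 8 were higher (background 14.0%). Their summed levels, mostly Lyz2, were 662618 to 916417 in TTP-AA libraries, 575063 to 800077 in GFP and 477273 to 655128 in TTP. Of the 11 markers of other cell types, only 2 were listed in the comparisons, S100a8 and Flt3. The neutrophil gene S100a8 was higher with TTP-AA than with GFP (0.76 ± 0.21) and than with TTP (0.74 ± 0.21). Flt3 was called in neither (-0.22 ± 0.15 and -0.18 ± 0.15). This is 1 of 2 in each (50.0%), beside backgrounds of 17.9% against GFP and 28.6% against TTP. The defining fibroblast markers Col1a1 and Col1a2 were near 0 (mean counts of 0.314 and 0.112), and the whole list summed to 390 to 527 in TTP-AA, 342 to 432 in GFP and 333 to 422 in TTP. Counts of Myc were higher in TTP-AA vs GFP (0.49 ± 0.15) and Hras was not called (0.12 ± 0.10, DESeq2 adjusted p = 0.448). Alignment was to the mouse genome, and whether reads of the human c-MYC and HRAS entered these 2 counts was not tested. The part of all these genes, from Adgre1 on, in the members' differences was not tested. In bulk RNA, fewer cells of a type and less RNA per cell cannot be told apart.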

How the data were processed

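Reads were trimmed (Trim Galore) and aligned by the authors with TopHat to GRCm38, counted per gene (HTSeq, per the processing notes of the labels) and fitted with DESeq2 1.6.3, with library date and condition as terms and Wald tests. The deposited per-library signal, named as normalized counts, was checked. It had no value of 0, and log2 ratios between libraries of the same replicate number differed from the deposited log2 fold changes by a constant, within 1.4e-14, so it holds fitted means without scatter. The authors' deposited comparison tables give a mean signal, a log2 fold change, its SE, a Wald score, a p-value and its adjusted form. These replaced a fit of library values, which cannot give an error here. Shrinkage of the deposited fold changes was not stated. All 1049 genes with a mean count under 20 in TTP-AA vs GFP had an SE below the counting error of 3 against 3 libraries, and the largest SE was 0.235, as in a fit that pulls fold changes toward 0.

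Computed here (scipy 1.17.1, pandas 2.3.3 and numpy 2.4.6 in Python 3.11.15) were library factors (median ratio to the geometric mean over genes above 20 in every library), group and replicate-number means of log2 scaled values (which differ from deposited log2 fold changes by a constant of -0.017, 0.009 and 0.026 in the 3 comparisons), a Wald chi-square over the 3 groups with Benjamini-Hochberg adjustment, exon-union lengths and motif counts. Of these steps, the Benjamini-Hochberg adjustment and the Wald chi-square were tested on simulated data, as was the spread of scores. The library factors, exon-union lengths and motif counts were not. Repeated identifiers were counted once. Positions, lengths and 3'UTRs came from GENCODE M21 and promoters from RefSeq, both on GRCm38. Groups and replicate numbers came from the sample titles. No column of per-sample values was left out. All 10 members were named, and of other lists at most 4 called genes per comparison, those with the largest change. The members and lists were chosen with earlier results of these data known. Intervals cover the model error given in the tables, and reads were not deduplicated by molecular identifiers. Reads with several placements could be shared between similar genes.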

Additional observations from a re-analysis of the deposited data

Results flagged for a closer look

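In all, 3 of the genes differed between the TTP forms by a test of the difference itself, the deposited DESeq2 comparison of TTP-AA with TTP, in which both forms are read under the same treatment. This is 3 of 10 beside 28.6% of all listed genes, a share near the background. The log2 difference was 0.81 for Sesn2, 0.63 for Trp53inp1 and 0.36 for Mdm2. For Sesn2 and Trp53inp1 the change against GFP was also called with TTP-AA and not with TTP. For Mdm2 neither change against GFP was called, at 0.17 with TTP-AA and -0.19 with TTP. Outlying libraries could not be looked for, since groups held 3 libraries and the library values are fitted.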

How the results depend on the processing

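Dividing the test statistics by their spread over all genes changed the calls of every comparison that had any. The number of members called went from 4 to 0 for TTP-AA vs GFP, from 3 to 0 for TTP-AA vs TTP and from 5 to 1 (Sesn2) for the 3 groups, whose statistic was divided by 3.39. Over all genes the same setting took the calls from 2361 to 142, from 3780 to 226 and from 3965 to 461. Recentring on the median of all genes or removing a linear trend on GC content and transcript length added Phlda3 for TTP-AA vs TTP (4 called, adjusted p = 0.0427 and 0.0382). Recentring by chromosome removed Mdm2 from that comparison (2 called). Testing only genes with a mean of at least 50 or 200 changed no member's call. Directions turned only for differences near 0 that were not called, namely Trp53 in TTP vs GFP (-0.00015 on the overall median, -0.02 by chromosome and -0.01 without the GC and length trend), and by chromosome Zmat3 in TTP-AA vs GFP (0.07) and Ccng1 in TTP-AA vs TTP (0.02). Scaling libraries by their sums or by least squares to the deposited mean moved no member's difference by more than its SE, and the longest annotated 3'UTR gave the same pentamer counts. No paired analysis was possible because the library values are fitted means that already contain the replicate-number term. For the same reason fits without a library, without the block or with other pseudocounts were not run. The 95% intervals of the members' log2 changes reached 0.16 to 0.32 to either side. Some differences beyond their own interval were also not called, such as Ccng1 in TTP vs GFP (0.19, interval 0.02 to 0.35, DESeq2 adjusted p = 0.151). A gene that was not called is thus not shown to be unchanged. The cause of the wide spread of scores was not tested, and true differences between groups would widen it as well.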
